A study of Mus musculus with 12 samples.

Results

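Mouse primary neural stem cells labelled Chd5-/- were sequenced 3 h and 48 h into differentiation, and the change between these times was measured. The members are the 6 libraries titled as Chd5-/- neural stem cells, 3 at each time, out of 12 libraries in the series. The other 6 are wild-type libraries of the same 2 times, 3 at each, which entered the model as separate groups and are used for comparison at the end. Per the labels, all cells had been grown with epidermal growth factor (EGF) and fibroblast growth factor 2 (FGF2), and all were switched to neurobasal medium with B-27 to differentiate, so the cells at 3 h had also left the growth factor medium. The labels give no age, strain or line, no separate animals or cultures behind the replicate numbers, and not the part of Chd5 that was deleted. The p-values below therefore measure only the spread between these libraries, which may be technical.

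Neural stem cells divide while EGF and FGF2 act on their receptor kinases, and after these factors are removed they leave the cell cycle and turn into neurons, astrocytes or oligodendrocyte precursors. Notch signalling, through its Hes and Hey repressors, holds cells in a progenitor or glial state, while proneural factors drive neurogenesis. CHD5 is a chromodomain helicase found in neurons, and its products can be part of the NuRD chromatin complex.

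Levels below are CPM, estimated reads of a gene per mega-read (M) of scaled library size, given in the order of replicates 1, 2 and 3. Chd5 itself (chromosome 4, 152338651 to 152390194, GRCm38) had reads in each of the 6 libraries. It stood at 5.25, 6.31 and 7.06 CPM at 3 h and at 5.7, 3.34 and 2.96 CPM at 48 h (log2 fold change -0.63 ± 0.31 SE, adjusted p = 0.17). The groups overlapped, the direction turned with an offset for transcript length (1.08), and TPM, the other deposited unit, ran from 0.336 to 2.67 at 3 h and from 2.56 to 3.88 at 48 h. These reads do not check the genotype, and Chd5-/- is used as the deposited label.

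The libraries held 18.71, 16.49 and 18.33 M estimated reads at 3 h and 14.42, 14.48 and 14.12 M at 48 h. Replicate 2 at 48 h stood apart. A chi-square comparison of its counts with those of replicates 1 and 3 gave 139.5 and 138.1 per gene, where counting error alone gives about 1. Replicates 1 and 3 at 48 h differed by 1.83 per gene, and the pairs at 3 h by 2.42 to 5.53. List counts are therefore given with this library and without it, and single calls are marked by whether they held without any one library. Of 20 stem cell markers, Nes, Vim, Fabp7 and Sox2 were found in every library at 99.3 CPM or more. They were picked after their values were seen. Others lay lower, such as Hes1 in every library and Hes5 at 3 h. Genes of smooth muscle and fibroblasts were also present, with a summed level of 641 to 679 CPM at 3 h. Of 12 markers of microglia and blood, 6 had 0 reads in the 6 libraries, and their summed level lay between 0.171 and 1.60 CPM.

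Of 16043 genes tested, 3544 passed an adjusted p of 0.05 (22.1%). Among them 2255 rose (14.1% of the genes tested) and 1289 fell (8.03%), and 3001 changed at least 2-fold. Without 48 h replicate 2, 4208 of 16768 genes passed (25.1%; 2502 rose, 14.9%, and 1706 fell, 10.2%). Of the 3544 genes, 3136 passed in the same direction without that library and 408 did not, while 1072 others passed only then. Leaving out any one of the other 5 Chd5-/- libraries gave between 1708 and 1807 calls. A call is described as held where it passed in all 6 fits that each left out 1 Chd5-/- library; 982 genes that rose and 466 that fell held. With the spread estimated from the 6 Chd5-/- libraries alone, 7836 of 14682 genes passed (53.4%), and 3265 of the 3544 were among them in the same direction. Less 48 h replicate 2, these libraries gave 12686 of 15513 (81.8%). With the 3 libraries that stand apart left out of all 12 (48 h replicate 2 and 2 of wild type), 13029 of 16489 passed (79.0%).

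For 10368 genes (64.6%) the 3 libraries of 1 time lay above the 3 of the other. The median log2 fold change over all genes tested was 0.04. Scaling by library size alone moved it to 0.23 and the share of calls that rose from 63.6% to 74.8%, so changes are read against these medians. The lists below were compiled with earlier results of these data known, and the share of each list that passed is to be read against those for all genes. These were 14.1% that rose and 8.03% that fell, 14.9% and 10.2% without 48 h replicate 2, and 6.70% to 7.66% and 3.15% to 3.77% without any one of the other 5 libraries.

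**Figure D1:**
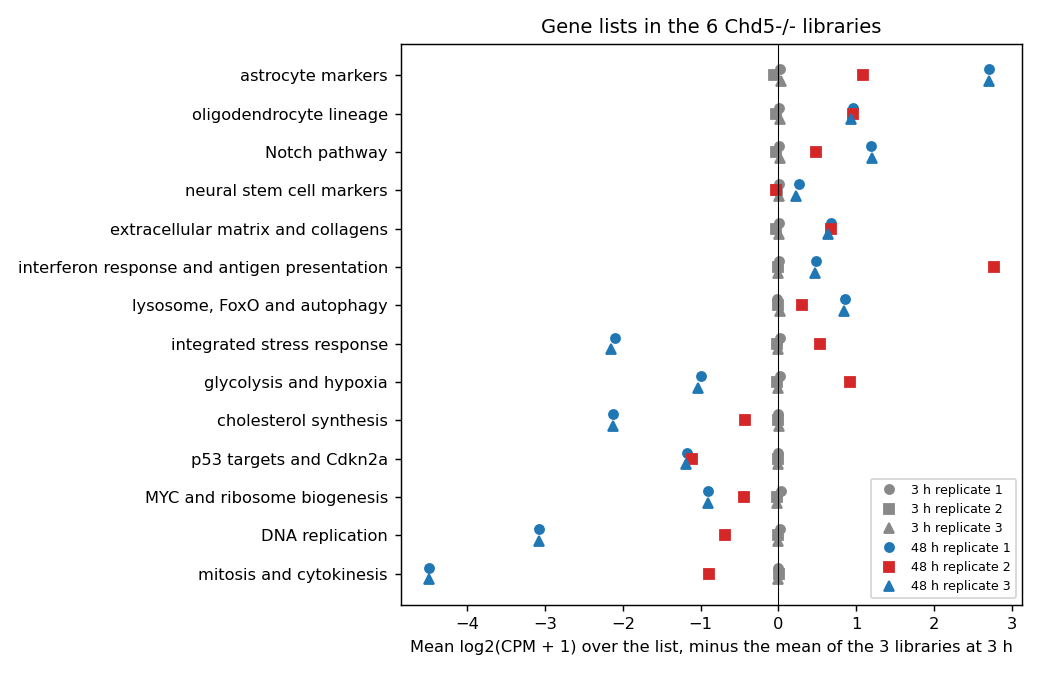
Mean log2(CPM + 1) over the genes of 14 lists (rows), minus the mean of the 3 libraries at 3 h, in each of the 6 Chd5-/- libraries. Grey symbols are 3 h libraries, blue symbols 48 h replicates 1 and 3, and red squares 48 h replicate 2. For mitosis genes, replicates 1 and 3 sit at -4.50 and -4.49 and replicate 2 at -0.89, while for interferon genes replicate 2 sits at 2.78 and the others at 0.48 and 0.47.

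Astrocyte genes rose. Of 20 astrocyte markers tested, 13 rose (65.0%) and 0 fell, against 14.1% and 8.03% of all genes, with a median log2 fold change of 2.08. Without 48 h replicate 2, 14 rose, and with any one of the other 5 libraries left out 8 rose. In 13 of the 20 every 48 h library lay above every 3 h library, and in 1 below (32.2% and 32.4% of all genes). Without the 3 libraries that stand apart, where 79.0% of all genes passed, 17 of the 20 rose and 2 fell. In bulk RNA, more cells of a type and more RNA per cell cannot be told apart, here or in the lists that follow.

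Sparcl1, which encodes a secreted protein of astrocytes that promotes synapse formation, stood at 10.7, 8.71 and 8.88 CPM at 3 h and at 1513, 647 and 1509 CPM at 48 h (log2 fold change 7.02 ± 0.42, adjusted p = 7.6e-05). The 48 h libraries lay far above the 3 h libraries, replicate 2 was the lowest of the 48 h libraries, and the call held. Apoe, the lipid carrier of astrocytes, stood at 6.15, 4.17 and 4.1 CPM and then at 709.7, 21.6 and 702 CPM (6.63 ± 1.05, adjusted p = 0.00616, held). Gfap, the intermediate filament gene of astrocytes, stood at 5.92, 4.1 and 4.95 CPM and then at 448, 24.8 and 442 CPM (5.93 ± 1.28, adjusted p = 0.0215). The groups did not overlap for Apoe or Gfap, but replicate 2 at 48 h reached only a small part of the level of the other two. The Gfap call was lost when any library other than 48 h replicate 2 was left out, with an adjusted p of up to 0.0861.

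The gap junction gene Gja1 stood at 3.86, 4.42 and 3.13 CPM at 3 h and at 162, 34.9 and 157 CPM at 48 h (4.95 ± 0.64, adjusted p = 0.00163). Aqp4, the water channel of astrocyte endfeet, rose from 0.503, 0.568 and 0.626 CPM to 5.51, 4.81 and 5.42 CPM, with replicate 2 close to the others. S100b, Slc1a2 (a glutamate transporter), Sox9 (a gliogenic transcription factor) and Mlc1 rose by 3.85, 2.13, 1.64 and 1.21 on the log2 scale, and these calls held, as did those of Gja1 and Aqp4. Clu, Cst3 and Aldoc rose by 3.6, 3.23 and 2.03, and these calls were lost without any one of the other 5 libraries. Slc1a3, the glutamate transporter shared with radial glia, rose by 1.43, and its call was lost in each of the 6 fits with 1 library left out. Id4, an inhibitor of basic helix-loop-helix factors, stood at 1.56, 1.7 and 2.5 CPM and then at 42.6, 0.734 and 46.6 CPM. In replicate 2 at 48 h it lay below the 3 h libraries; it missed the threshold with all 12 libraries (3.96, adjusted p = 0.0578) and passed without that library (4.52). Ndrg2, which is outside the list and encodes a protein abundant in astrocytes, rose from 0.335, 0.442 and 0.512 CPM to 109, 4.34 and 110 CPM (7.41, held). Glul and Aldh1l1, which encode enzymes of astrocytes, did not pass with all libraries (1.1 and 0.88), and without replicate 2 Glul passed (1.43).

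**Figure D2:**
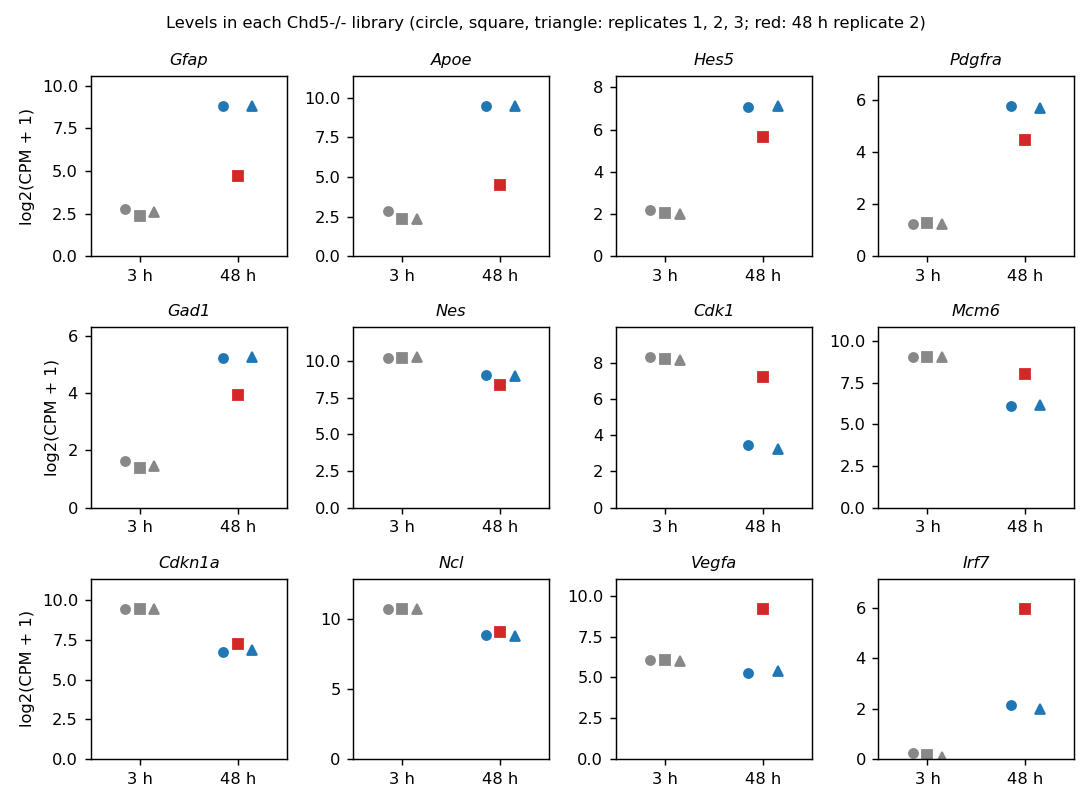
Levels of 12 genes as log2(CPM + 1) in each Chd5-/- library at 3 h and 48 h; circles, squares and triangles are replicates 1, 2 and 3, and the red square is 48 h replicate 2. Gfap, Apoe and Cdk1 in replicate 2 lie between the 3 h libraries and the other 48 h libraries, Cdkn1a and Ncl lie near the other 48 h libraries, and Vegfa and Irf7 are highest in replicate 2.

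Some Notch pathway genes rose. Of 17 tested, 6 rose (35.3%) and 0 fell (median 0.78); without 48 h replicate 2 the counts were 6 and 0, and without any one of the other 5 libraries 3 and 0. The sequence before the start of Hes5, the Notch effector that changed most, is shown here because it carries the letters bound by RBPJ, the DNA-binding partner of Notch. Capitals mark TGGGAA on either strand in the 250 bases before the RefSeq start (GRCm38.p6, chr4:154960673-154960922, plus strand), written 5′ to 3′.

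Hes5: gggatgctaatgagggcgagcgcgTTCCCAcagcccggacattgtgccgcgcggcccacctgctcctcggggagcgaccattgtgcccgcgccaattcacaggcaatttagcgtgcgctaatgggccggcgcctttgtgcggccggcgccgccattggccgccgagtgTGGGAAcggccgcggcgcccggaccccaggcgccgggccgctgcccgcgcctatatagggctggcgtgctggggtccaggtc

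Of 13 promoters of the list with a RefSeq sequence, 4 held these letters (30.8%), against 21.6% of 27025 promoters of the same length, 1 per gene. In the other lists with sequences the share ran from 0% (as in 10 GABAergic promoters) to 53.3% (8 of 15 astrocyte promoters). Hes5 stood at 3.63, 3.16 and 2.96 CPM at 3 h and at 132, 48.6 and 138 CPM at 48 h (5.03 ± 0.77, adjusted p = 0.00388). Every 48 h library lay above every 3 h library, and replicate 2 was lowest among them. Hey1, another effector, stood at 15, 14.5 and 15.1 CPM and then at 102, 36.7 and 104 CPM (2.44 ± 0.48, adjusted p = 0.00745). Mfng, a glycosyltransferase gene that tunes Notch ligand binding, rose by 3.07, and these 3 calls held. Hey2, Rfng (a second fringe gene) and Nrarp (a Notch feedback regulator) rose by 3.79, 1.58 and 0.78; the calls of Hey2 and Rfng were lost without any one of the other 5 libraries, and that of Nrarp in each of the 6 fits. The receptor gene Notch1 and the ligand genes Dll1 and Jag1 did not pass (0.70, 1.11 and 0.65), and Hes1 stood at 16.3 and 17.7 CPM in 48 h replicates 1 and 3, beside 16.1 to 17 CPM at 3 h, and at 56.1 CPM in replicate 2.

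Stem cell markers moved both ways. Of 18 tested, 4 rose and 4 fell (22.2% each, median 0.30). The counts were 3 and 2 without 48 h replicate 2, 2 and 2 without any one of the other libraries, and 4 and 2 by library size alone. Nes, the intermediate filament of neural progenitors, stood at 1147, 1154 and 1213 CPM at 3 h and at 517, 322 and 496 CPM at 48 h (-1.40 ± 0.31, adjusted p = 0.0114). The groups did not overlap, and the call held. Fabp7 (a fatty acid binding protein of radial glia) and Nr2e1 (a stem cell nuclear receptor) fell by 1.10 and 1.06, and both calls were lost in each fit with 1 library left out. Lrig1, an ErbB inhibitor and marker of slowly dividing stem cells, rose from 292, 312 and 302 CPM to 1228, 690 and 1195 CPM (1.78, adjusted p = 0.0265, lost without any one of the other 5 libraries). Sox2, Pax6 and Vim did not pass (0.84, 0.32 and -1.03). Among 11 BMP and ID genes 3 rose (27.3%) and 0 fell, and without 48 h replicate 2 the counts were 5 and 1. Id2 rose from 12, 12.2 and 11.2 CPM to 103, 34 and 107 CPM (2.78, adjusted p = 0.0128, lost without any 3 h library).

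A part of the oligodendrocyte lineage genes rose. Of 12 tested, 4 rose (33.3%) and 1 fell (8.33%; median 1.18), and 9 were higher in every 48 h library than in every 3 h library (32.2% of all genes), and the counts were 4 and 1 in each of the 6 fits with 1 library left out; by library size alone they were 8 and 1. Gpr17, a receptor of committed precursors, stood at 0.727, 1.07 and 0.797 CPM at 3 h and at 34.1, 34.6 and 34.8 CPM at 48 h (5.31 ± 0.35, adjusted p = 7.6e-05). Pdgfra, the platelet-derived growth factor receptor of precursors, stood at 1.34, 1.45 and 1.37 CPM and then at 53.9, 21.3 and 50.8 CPM (4.92 ± 0.53, adjusted p = 0.000685). Cspg4, the NG2 proteoglycan, stood at 17, 16.2 and 19.2 CPM and then at 84.5, 186 and 79.7 CPM (2.74 ± 0.44, adjusted p = 0.00315). Replicate 2 at 48 h was level with the others for Gpr17, lowest for Pdgfra and highest for Cspg4. Nkx2-2, a homeobox factor of the ventral neural tube and of oligodendrocytes, fell from 31.7, 31.1 and 35.5 CPM to 11.8, 13.5 and 9.02 CPM (-1.52 ± 0.24, adjusted p = 0.004). These 4 calls held. Olig2 did not pass (0.42) and was highest in replicate 2 (655 CPM, against 346 and 334 CPM).

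Neuronal genes changed in no single direction, beside 14.1% that rose and 8.03% that fell of all genes. Of 15 proneural and neurogenic genes 4 rose (26.7%) and 3 fell, of 18 cytoskeletal and RNA-binding genes 3 rose (16.7%) and 2 fell (11.1%), of 19 synaptic genes 5 rose (26.3%) and 2 fell (10.5%), and of 5 GABAergic genes 2 rose (40.0%). The medians were 0.23, -0.13, 0.45 and 1.12; the second turned to 0.07 by library size alone and to 0.13 without 48 h replicate 2. Without that library the counts were 5 and 3, 3 and 2, 6 and 1, and 2 and 0.

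Insm1, a zinc finger factor of progenitors that make neurons, stood at 24, 22.3 and 26.5 CPM at 3 h and at 2.6, 1.87 and 2.9 CPM at 48 h (-3.30 ± 0.36, adjusted p = 0.000541). Sox11, of newborn neurons, fell by 1.27, and Dll3, a Notch inhibitor of neurogenic cells, rose by 3.2; the 3 calls held. Gad1, which makes the transmitter GABA, stood at 2.07, 1.58 and 1.76 CPM and then at 36.8, 14.1 and 37.1 CPM (4.02 ± 0.35, adjusted p = 0.000179, held). Dcx, the microtubule protein of migrating neurons, stood at 0.168, 0.316 and 0 CPM and then at 15.8, 0.134 and 16.5 CPM (6.03 ± 1.59, adjusted p = 0.0239). In 48 h replicate 2 it was no higher than at 3 h, so the groups overlapped, and the call was lost without any one of the other 5 libraries. Mapt, which encodes tau, stood at 15.4, 15.3 and 15.5 CPM and then at 207, 42.8 and 201 CPM (3.29 ± 0.71, adjusted p = 0.0129, lost without any 3 h library). The splicing regulators Nova1 and Nova2 changed in opposite directions, by 1.25 and -1.47, and the synaptic vesicle gene Syn2, the adhesion gene Nlgn1 and the active zone gene Rims1 rose by 2.18, 1.64 and 3.39; these calls held. Homer1, a postsynaptic scaffold, fell by 2.14, a call lost without 48 h replicate 1 or 3. Tubb3, a neuronal tubulin, did not pass (-0.67), with 81.2 and 79.9 CPM in 48 h replicates 1 and 3 and 16 CPM in replicate 2.

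Cell cycle genes stood far below the 3 h level in 48 h replicates 1 and 3 and less far below it in replicate 2. Of 22 DNA replication genes 6 fell (27.3%) in edgeR with all libraries and 20 without 48 h replicate 2, with medians of -1.86 and -3.20. With all libraries 13 fell by limma-voom, and 10 of the 12 to which DESeq2 gave an adjusted p. Of 22 genes of mitosis and cytokinesis 0 passed in edgeR with all libraries (3 at an unadjusted p under 0.05; 14 by limma-voom, while DESeq2 gave no adjusted p for any), and 20 fell without replicate 2, with medians of -2.35 and -4.71. Without any one of the other 5 libraries, 0 of either list passed in edgeR. All 22 mitosis genes were lower in every 48 h library than in every 3 h library, against 32.4% of all genes, and so were 19 of the 22 replication genes.

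The sequences before Cdk1 and Mcm6 stand for these lists because their letters are those of known cell cycle promoters. In Cdk1 (chr10:69352913-69353162, minus strand), capitals mark the CHR element TTTGAA and the CCAAT box, here read as ATTGG on the other strand; in Mcm6 (chr1:128359706-128359955, minus strand), they mark the E2F letters TTTGGCGC and the CCAAT box. Both are the 250 bases before the RefSeq start in GRCm38.p6, written 5′ to 3′ on the strand of the gene.

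Cdk1: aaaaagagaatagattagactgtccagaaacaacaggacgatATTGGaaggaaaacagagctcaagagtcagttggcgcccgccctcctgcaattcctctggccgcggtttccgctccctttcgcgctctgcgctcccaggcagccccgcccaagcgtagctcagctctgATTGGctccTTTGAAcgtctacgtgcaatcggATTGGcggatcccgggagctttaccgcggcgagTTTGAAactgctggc

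Mcm6: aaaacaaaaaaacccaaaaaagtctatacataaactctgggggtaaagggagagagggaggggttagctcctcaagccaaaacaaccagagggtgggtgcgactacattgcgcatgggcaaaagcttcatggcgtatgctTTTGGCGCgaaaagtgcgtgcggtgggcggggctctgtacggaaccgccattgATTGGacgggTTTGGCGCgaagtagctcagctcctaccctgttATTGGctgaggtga

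Motifs were searched on both strands. CCAAT was found in 15 of 18 mitosis promoters (83.3%) and 12 of 17 replication promoters (70.6%), against 34.2% of all 27025. TTTGAA was found in 5 of the 18 mitosis promoters (27.8%, against 16.3%), and either of the E2F forms TTTCCCGC and TTTGGCGC in 4 of the 17 replication promoters (23.5%, against 1.37%). Such shares were not particular to these lists. CCAAT was in 13 of 14 cholesterol synthesis promoters (92.9%), 11 of 15 proneural promoters (73.3%) and 1 of 14 synaptic promoters (7.14%). An E2F form was in 4 of 16 promoters of MYC and ribosome biogenesis (25%). A match describes the letters and not binding.

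Cdk1, the kinase of mitotic entry, stood at 318, 301 and 288 CPM at 3 h and at 10.2, 147 and 8.45 CPM at 48 h (-2.45 ± 1.16, adjusted p = 0.178; -5.03 ± 1.00 without replicate 2, which passed). Mcm6, a subunit of the replicative helicase, stood at 522, 518 and 518 CPM and then at 69, 255 and 71 CPM (-1.98 ± 0.62, adjusted p = 0.0498; -2.90 ± 0.57 without replicate 2). No 48 h library reached a 3 h library for either gene, and replicate 2 lay between. The Mcm6 call was also lost with RLE size factors and without any one of the other 5 libraries. Mki67, a marker of dividing cells, stood at 529, 581 and 584 CPM and then at 15.7, 268 and 18.2 CPM. Pcna, the polymerase clamp, fell by 2.28, a call lost without any one of the other 5 libraries. Mcm2, Rrm2, Top2a and Ccnb1 passed without replicate 2 (-2.64, -4.96, -4.23 and -4.82) and not with it. So did Ccnd1, the growth factor dependent G1 cyclin, at 1939, 1938 and 1995 CPM and then 82.3, 807 and 79.3 CPM, and Ccnd2, which in replicate 2 (362 CPM) lay above its 3 h range of 249 to 275 CPM. Among genes that passed only without replicate 2, E2f7, a repressor of E2F targets, and Pclaf, a PCNA partner, fell most among cell cycle genes (-5.57 and -5.70).

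Cell cycle inhibitors gave few calls, and p53 targets more. Of 15 genes of inhibitors, pocket proteins and G1 regulators, 0 rose and 2 fell (13.3%; 7 fell without 48 h replicate 2). Cdkn2c fell from 116, 112 and 118 CPM to 41.8, 65 and 39.5 CPM (-1.24, adjusted p = 0.0051, held), while Cdkn1b and Cdkn1c did not pass (0.43 and -0.43). Of 18 genes tested in the list of p53 targets and Cdkn2a, 8 fell (44.4%) and 1 rose (5.56%), with a median of -1.17. The counts were 7 and 1 without replicate 2, 3 and 0 without any one of the other 5, and 4 and 1 by library size alone. Cdkn1a, the p21 inhibitor induced by p53, stood at 709, 687 and 691 CPM at 3 h and at 106, 153 and 114 CPM at 48 h (-2.48 ± 0.26, adjusted p = 0.000425). Pmaip1, a death effector, fell from 25.9, 28.5 and 24.6 CPM to 6.38, 3.27 and 5.55 CPM (-2.38, adjusted p = 0.00393), and the nuclease gene Aen fell by 1.14. These 3 calls held, and in each of these genes the 48 h libraries lay below the 3 h libraries. The death receptor gene Fas, the p53 ligase gene Mdm2 and Ccng1 fell by 2.30, 0.73 and 1.48, each lost in every fit with 1 library left out. The gene that rose was Btg2, an antiproliferative gene of neurogenic divisions (1.19, lost without any one of the other 5 libraries). Cdkn2a did not pass (0.18). Of 15 cell death regulators 2 rose and 2 fell (13.3% each, and the same counts without replicate 2); the survival gene Mcl1 fell by 1.16, and its call held.

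**Figure D3:**
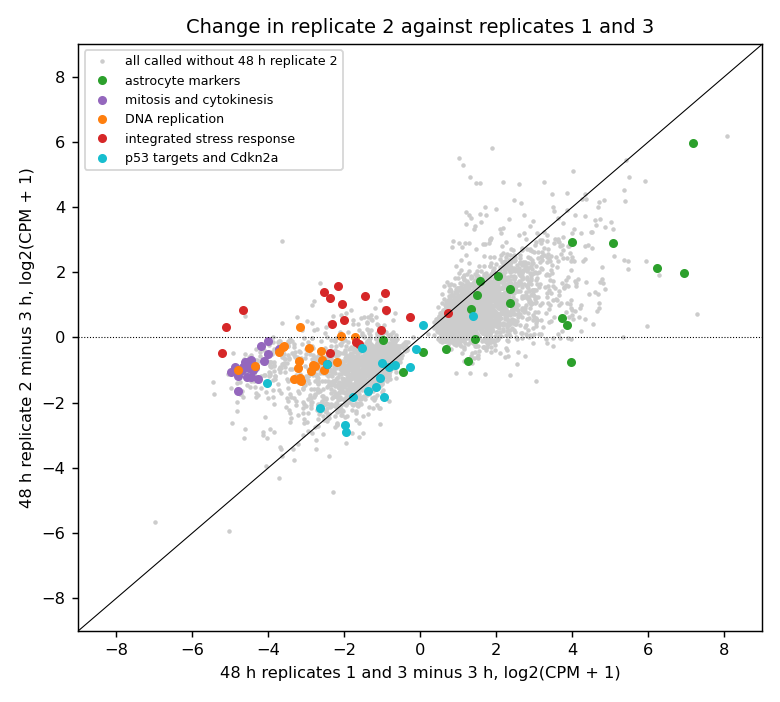
Change of each gene called without 48 h replicate 2 (grey) and of 5 lists (coloured), as log2(CPM + 1) minus the 3 h mean, for replicates 1 and 3 together (horizontal) and replicate 2 (vertical). On the diagonal the changes are equal; mitosis and replication genes lie well above it, p53 targets near it, and stress response genes largely above the dotted line of no change.

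The libraries at 48 h were compared gene by gene. Among genes that passed without replicate 2 and differed by at least 1 on the log2(CPM + 1) scale between 3 h and 48 h replicates 1 and 3, the position of replicate 2 was taken as 0 at the 3 h mean and 1 at the mean of the other two. Its median was 0.59 over 1861 genes that rose and 0.54 over 1342 that fell. The same measure was taken over list members with such a shift, whether or not they passed. Its median was 0.21 for mitosis, 0.25 for replication, 0.51 for astrocyte genes and 0.93 for the list of p53 targets and Cdkn2a. It was -0.28 for glycolysis, with 7 of 10 such genes below 0, and -0.18 for the integrated stress response, with 10 of 15 below 0. For interferon genes it was 2.46, over only 5 of the 18 genes tested. These 3 medians lie outside the range between the times. These positions describe 1 Chd5-/- library, and the cause was not tested. Wild-type replicate 2 at 48 h also differed from wild-type replicates 1 and 3 in these lists. Its mean log2(CPM + 1) was 7.2 for mitosis (3.3 and 3.4 in the others) and 6.6 for replication (3.9 and 4.0). It was 7.4 for glycolysis (5.8 and 5.8), 7.0 for the stress response (5.0 and 5.0) and 5.9 for astrocyte genes (7.6 and 7.6). For interferon genes it was 3.4 (2.9 and 3.0), beside 5.6 in Chd5-/- replicate 2 (3.3 and 3.3).

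Genes of growth factor signalling, metabolism and stress depended on that library. Of 17 feedback genes of the EGF and FGF pathway 2 rose (11.8%) and 0 fell with all libraries, and 2 rose and 3 fell without replicate 2. Dusp6, a phosphatase gene induced by ERK signalling, stood at 229, 233 and 236 CPM at 3 h and at 23.7, 357 and 23.9 CPM at 48 h; Spry4, an inhibitor of the same pathway, stood at 116, 122 and 126 CPM and then at 17.2, 264 and 15.6 CPM. In both genes replicate 2 was the highest of the 6 libraries and the other 48 h libraries were the lowest, and both fell without it (-3.30 and -2.90). Il17rd, which encodes an FGF signalling inhibitor, rose from 2.35, 2.84 and 2.39 CPM to 66.5, 16.7 and 67.7 CPM (4.31 ± 0.68, adjusted p = 0.00358), and Phlda1 rose by 1.39; both calls held. Of 13 receptor and ligand genes 4 rose (30.8%) and 2 fell (15.4%), and without replicate 2, or by library size alone, 4 and 1. Fgfr3, the FGF receptor enriched in astrocytes, stood at 65, 66.7 and 68.6 CPM and then at 544, 263 and 531 CPM (2.74 ± 0.31, adjusted p = 0.000628, held), and Hbegf, an EGF receptor ligand, fell by 1.65 (held). Egfr and Fgfr1, the receptors of the withdrawn factors, did not pass (0.34 and 0.56).

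Of 21 genes of cholesterol synthesis 3 fell (14.3%) with all libraries and 8 without replicate 2 (medians -1.40 and -2.28). Hmgcs1 and Idi1, enzymes of the mevalonate pathway, held: Idi1 stood at 410, 418 and 416 CPM at 3 h and at 32.5, 92.9 and 37 CPM at 48 h (-2.94 ± 0.49, adjusted p = 0.00388), and Hmgcs1 fell by 2.26. Of 18 genes of glycolysis and hypoxia 1 fell (5.56%) with all libraries and 5 without replicate 2. Vegfa, the angiogenic factor induced by hypoxia, stood at 67.2, 66.5 and 64.3 CPM and then at 37.9, 600.01 and 41.2 CPM, and passed in neither fit (1.78 and -0.75). Ldha stood at 902, 867 and 872 CPM and then at 261, 1265 and 254 CPM, and fell without replicate 2 (-1.78). Replicate 2 was the highest library for both, and for Pdk1 (127 CPM, against 22.8 and 22.3 CPM).

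In the integrated stress response, the program of ATF4, 0 of 19 genes passed in edgeR with all libraries (4 at an unadjusted p under 0.05; limma-voom called 4, and DESeq2 3 of the 7 it gave an adjusted p), and 9 fell without replicate 2. Chac1, a glutathione-degrading enzyme, stood at 51.1, 49.4 and 53.7 CPM at 3 h and at 0.495, 36.2 and 0.315 CPM at 48 h (-2.06, and -6.97 without replicate 2). Trib3 stood at 43.8, 42.7 and 39.3 CPM and then at 0.743, 76.2 and 0.631 CPM (-0.70, and -5.93 without it). Replicates 1 and 3 at 48 h were near 0 for both genes, while replicate 2 was near or above the 3 h level. Atf4 passed without replicate 2 (-1.71), while Asns and Ddit3 passed in neither fit.

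Interferon-stimulated genes were highest in replicate 2. Of 18 genes tested 7 rose (38.9%) with all libraries and 5 without it, with medians of 2.02 and 0.47. By library size alone 11 rose, and between 3 and 9 rose without any one of the others. The sequence before Ifit1 is shown because it carries the interferon-stimulated response element. Capitals mark its letters (GAAA, any 2 bases, GAAA), here read on the other strand, in the 250 bases before the RefSeq start (chr19:34640639-34640888, plus strand, GRCm38.p6).

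Ifit1: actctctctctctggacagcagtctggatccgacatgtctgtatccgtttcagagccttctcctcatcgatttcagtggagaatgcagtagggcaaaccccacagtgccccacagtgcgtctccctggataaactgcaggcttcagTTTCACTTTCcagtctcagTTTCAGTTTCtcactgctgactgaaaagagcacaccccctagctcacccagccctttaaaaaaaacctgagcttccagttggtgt

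Of 16 promoters of the list with a sequence, 7 held these letters on either strand (43.8%), against 3.06% of all 27025. Ifit1, which encodes an antiviral RNA-binding protein, stood at 3.19, 4.1 and 3.87 CPM at 3 h and at 4.71, 53.8 and 4.29 CPM at 48 h (2.49 ± 0.78, adjusted p = 0.0521; 0.26 without replicate 2). Irf7, a transcription factor of the response, stood at 0.168, 0.126 and 0.0569 CPM and then at 3.41, 61.6 and 2.9 CPM (7.50 ± 1.37, adjusted p = 0.00417), and 4.65 ± 0.66 without replicate 2. Irf7 lay above its 3 h range in every 48 h library and its call held, while Ifit1 in replicates 1 and 3 was close to its 3 h range. Ddx58, a sensor of viral RNA, rose by 2.54 and by 1.52 without replicate 2, and H2-D1, a class I antigen gene, by 2.05 and 1.21; both held. Usp18 stood at 106 CPM in replicate 2, against 4.46 and 5.36 CPM in the others and 1.52 to 1.96 CPM at 3 h (4.48, lost without any 3 h library).

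**Figure D4:**
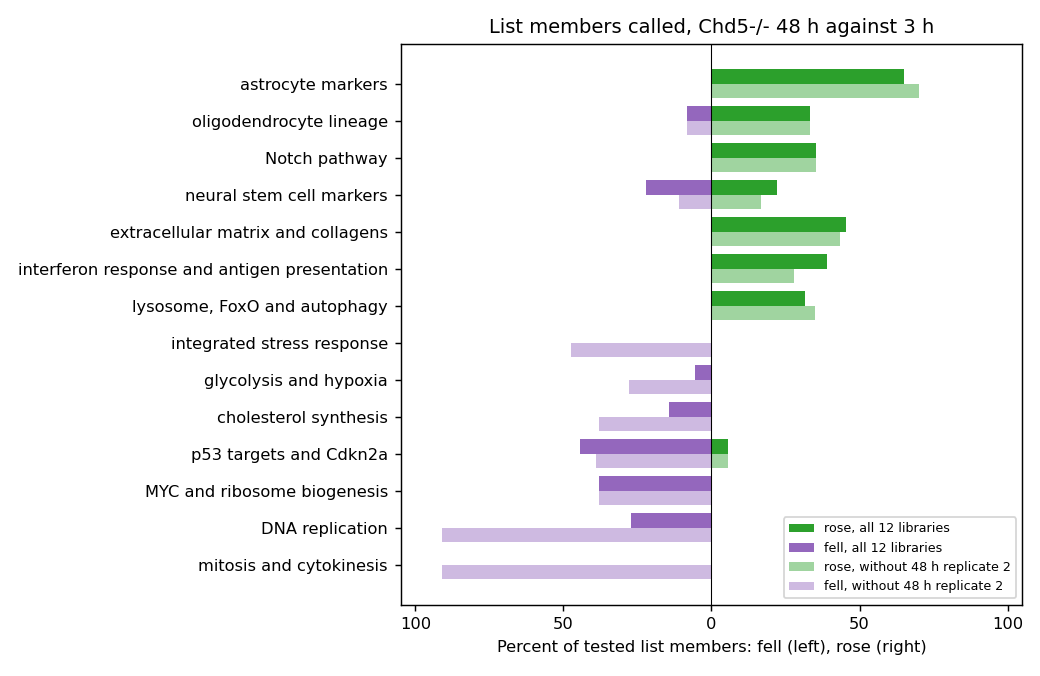
Percent of the tested genes of 14 lists that rose (right, green) or fell (left, purple) between 3 h and 48 h, with all 12 libraries (dark) and without 48 h replicate 2 (light). Of 22 mitosis genes 0 fell with all libraries and 20 without replicate 2, while the astrocyte list went from 13 to 14 of 20.

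Of 21 genes of MYC and ribosome biogenesis 8 fell (38.1%) and 0 rose, with and without 48 h replicate 2 (medians -0.81 and -1.04). By library size alone, or without any one of the other libraries, 4 fell. In 14 of the 21 each 48 h library lay below each 3 h library, against 32.4% of all genes. Ncl, the nucleolar protein nucleolin, stood at 1697, 1692 and 1669 CPM at 3 h and at 448, 519 and 447 CPM at 48 h (-1.84 ± 0.23, adjusted p = 0.00086). Nop58 and Nolc1, of nucleolar ribonucleoproteins, and Odc1, the polyamine enzyme and MYC target, fell by 2.29, 1.59 and 1.11; these 4 calls held, though that of Ncl was lost with the length offset. Myc did not pass (0.05), at 39.1, 112 and 40.1 CPM at 48 h and 57.9 to 64.3 CPM at 3 h. Of 33 ribosomal protein genes 1 fell (3.03%; median -0.18, and 0.01 by library size alone).

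Of 13 mRNAs of the mitochondrial genome 9 fell (69.2%) and 0 rose (median -1.37; 6 fell without replicate 2 or by library size alone, and 2 to 4 without any one of the others). mt-Co3, a subunit of cytochrome oxidase, stood at 3772, 3779 and 3612 CPM at 3 h and at 754, 998 and 960 CPM at 48 h (-2.04 ± 0.36, adjusted p = 0.0042, held). mt-Nd3, of complex I, fell by 2.90 (held), with 69.7, 106 and 164 CPM at 3 h and 16.5, 3 and 25.9 CPM at 48 h. mt-Nd1 fell by 2.17, lost without any one of the other 5 libraries, and mt-Co1 did not pass (-0.84). Each of the 13 was lower in every 48 h library than in every 3 h library, against 32.4% of all genes.

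Matrix genes rose. Of 22 tested 10 rose (45.5%) and 0 fell (median 0.98), 10 rose without replicate 2 (median 0.42), and 7 or 8 without any one of the others. In 12 every 48 h library lay above every 3 h library, and in 4 below (32.2% and 32.4% of all genes). Without the 3 libraries that stand apart, where 79.0% of all genes passed, 12 of 23 rose and 7 fell. The members named here are among those that rose. Col5a2, a fibrillar collagen gene, stood at 0.782, 1.14 and 1.25 CPM at 3 h and at 41.7, 42.1 and 38.7 CPM at 48 h (5.26 ± 0.42, adjusted p = 0.00016). Timp3, an inhibitor of matrix proteases, stood at 1.06, 0.379 and 0.455 CPM and then at 63.3, 7.28 and 67 CPM (6.16 ± 0.77, adjusted p = 0.00132). Replicate 2 matched the other 48 h libraries for Col5a2 and lay below them for Timp3. The brain proteoglycans Bcan and Ncan and the matricellular gene Sparc rose by 2.43, 1.91 and 2.29, and all 5 calls held.

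Few markers of other cell types could be tested. In the list of smooth muscle and fibroblast genes 6 were tested, of which 2 rose and 2 fell (33.3% each; 2 and 3 without replicate 2), and the summed level of the list was 641 to 679 CPM at 3 h and 22.1 to 32.5 CPM at 48 h. Acta2, smooth muscle actin, stood at 598, 574 and 566 CPM and then at 3.47, 10.5 and 3.72 CPM (-6.61 ± 0.67, adjusted p = 0.000833), and Tagln, another contractile gene, fell by 3.15. Twist1, a mesenchymal transcription factor, rose from 0.0559, 0 and 0.0569 CPM to 1.8, 2 and 1.77 CPM. These 3 calls held. Of 4 ependymal markers 2 fell (1 without replicate 2 or by library size alone), and Foxj1, the factor of motile cilia, went from 63.9, 59 and 63.2 CPM to 27.6, 8.21 and 26.4 CPM (-1.58, lost in each fit with 1 library left out). Of 7 endothelial markers tested 3 rose (42.9%) and 0 fell, and 2 rose without replicate 2. The summed level of the whole list of 10 was 7.06 to 8.16 CPM at 3 h and 6.50 to 13.8 CPM at 48 h. Of 3 markers of neural crest and Schwann cells tested, 0 passed in edgeR (1 at an unadjusted p under 0.05), and 1 fell without replicate 2. Limma-voom called 1 and DESeq2 0 of 2. The summed level of the whole list of 9 was 67.6 to 74.2 CPM at 3 h and 18.2 to 125 CPM at 48 h. The part of these cell types in the other results was not tested.

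Among genes of largest change that rose, Fendrr, a long noncoding RNA, stood at 0.112, 0.0631 and 0.114 CPM at 3 h and at 16.2, 22.4 and 13.9 CPM at 48 h (7.38 ± 0.58, adjusted p = 7.6e-05); whether counting used the strand is not given in the sources used here, so reads of a partner on the other strand cannot be told apart. The glutamate receptor gene Grik2, the neuronal migration gene Astn2 and Kctd4 rose by 7.35, 7.29 and 7.22, and the calls held. Olfml1 had 0 reads at 3 h and was at least 132-fold higher at 48 h, against a floor of 3 reads over the group. Dhrs3, a retinaldehyde reductase gene, was at least 129-fold higher on the same floor, but stood at 11.7, 0.0668 and 10.8 CPM at 48 h and was lost without any 3 h library. Mroh7, Dscaml1 and Nkain2 had 2 or 3 reads at 3 h, and their ratios were 347 (95% Poisson interval 96.1 to 2867), 320.1 (109.5 to 1552) and 205 (70.3 to 996). These bounds and intervals cover counting error alone.

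Among the genes that fell most after Acta2, Npas4, an activity-dependent transcription factor, stood at 71.5, 67.5 and 68.2 CPM and then at 0.929, 0.134 and 1.32 CPM (-6.42 ± 0.68, adjusted p = 0.000685). The postsynaptic gene Nrgn, the hyaluronan-degrading gene Cemip and the small GTPase gene Diras2 fell by 4.99, 4.35 and 4.32. Each of these calls held, and the 48 h libraries lay below the 3 h libraries. Of 19 genes tied to the lysosome, FoxO and autophagy 6 rose (31.6%; 7 without replicate 2, and 1 without any one of the other 5), of which Pik3ip1, a PI3 kinase inhibitor, held, from 7.32, 6.57 and 7.46 CPM to 129, 43.9 and 129 CPM (3.82, adjusted p = 0.00131).

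Regional factors and chromatin genes gave few calls in each list, beside 14.1% that rose and 8.03% that fell of all genes. Of 11 forebrain factors 3 rose (27.3%) and 0 fell, also without replicate 2. Six3, of the anterior forebrain, rose from 6.99, 4.48 and 6.54 CPM to 13.5, 15.8 and 14.6 CPM (1.28). Of 10 midbrain, hindbrain and Hox factors 2 rose and 2 fell (the same without replicate 2, and 2 and 1 by library size alone), and En2, of the midbrain-hindbrain boundary, fell by 1.84. Of 20 chromodomain helicase and NuRD genes 1 rose (5.00%) and 3 fell, with the same counts without replicate 2 and 1 and 1 by library size alone: Chd3 rose from 24.9, 27.5 and 29.9 CPM to 64.3, 53.9 and 64.1 CPM (1.15 ± 0.20, adjusted p = 0.00378), and the histone chaperone Rbbp7 fell by 1.47. Chd4 and Chd7 did not pass (0.21 and 0.12). Of 19 Polycomb and DNA methylation genes 3 rose (15.8%) and 2 fell (10.5%; 3 and 3 without replicate 2). The methyltransferase gene Ezh1 stood at 4.36, 4.55 and 4.61 CPM and then at 32.3, 21.8 and 32 CPM (2.67 ± 0.24, adjusted p = 0.000168); Cbx7 (a reader of the Polycomb mark) and Kdm6b (which removes it) rose by 2.00 and 1.70, and Phf19, a Polycomb cofactor, fell by 2.11. Of 18 Wnt genes 5 rose (27.8%) and 2 fell (11.1%; 4 and 3 without replicate 2); the feedback gene Nkd1 and the antagonist Sfrp1 rose by 2.03 and 3.60, and the receptor gene Fzd5 fell by 3.02. In the Hedgehog list 1 of 11 rose (9.09%), the coreceptor gene Boc (1.60), and 2 without replicate 2. The calls named in this paragraph held.

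The time change was set beside that of wild type. In wild type 3668 of 16043 genes passed (22.9%; 12.7% higher and 10.1% lower at 48 h); 1906 genes passed in both genotypes in the same direction and 24 in opposite directions. Across the 16043 genes, which are not independent replicates, the log2 fold changes of the genotypes, which share no library, had a Pearson r of 0.65. The difference between the genotypes in their time change, tested as an interaction, passed for 37 genes (0.231%), with the Chd5-/- change the higher in 22 (0.137%) and the lower in 15 (0.0935%); 1610 genes reached an unadjusted p under 0.05. Of the 37, 34 also passed in the Chd5-/- libraries. Wild-type replicate 1 at 3 h and wild-type replicate 2 at 48 h also stand apart from their groups. The first had a mean transcript length, weighted by reads, of 1805 bases, 16.3% of reads in ribosomal protein genes and 0.532% in mitochondrial genes, against 3049 to 3304 bases, 3.54% to 4.47% and 1.10% to 2.29% in the other wild-type libraries. Wild-type ranges at 3 h below include it. Without these and 48 h replicate 2, 6669 of 16489 genes passed (40.4%), the 37 among them in the same direction.

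Of the genes named above, 5 differed in this test. Sparcl1 stood at 449.9 to 1149.8 CPM in wild type at 3 h and at 2242 to 3285 CPM at 48 h, so that the rise was larger by 5.51 ± 0.59 in Chd5-/- (adjusted p = 0.00476) from a lower start. Col5a2 stood at 1.72 to 6.88 CPM and 5.26 to 5.79 CPM in wild type (difference 5.11 ± 0.58, adjusted p = 0.00572). Insm1 in wild type stood at 6.68 to 18.9 CPM and then 11.5 to 14.5 CPM, against the fall in Chd5-/- (-3.13 ± 0.51, adjusted p = 0.0418). Nkx2-2 had 0 reads in wild type at 3 h and 0.284 to 0.366 CPM at 48 h (adjusted p = 0.00476), and Twist1 fell in wild type from 1.77 to 2.23 CPM to 0.337 to 0.672 CPM (7.45 ± 0.86, adjusted p = 0.00248).

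**Figure D5:**
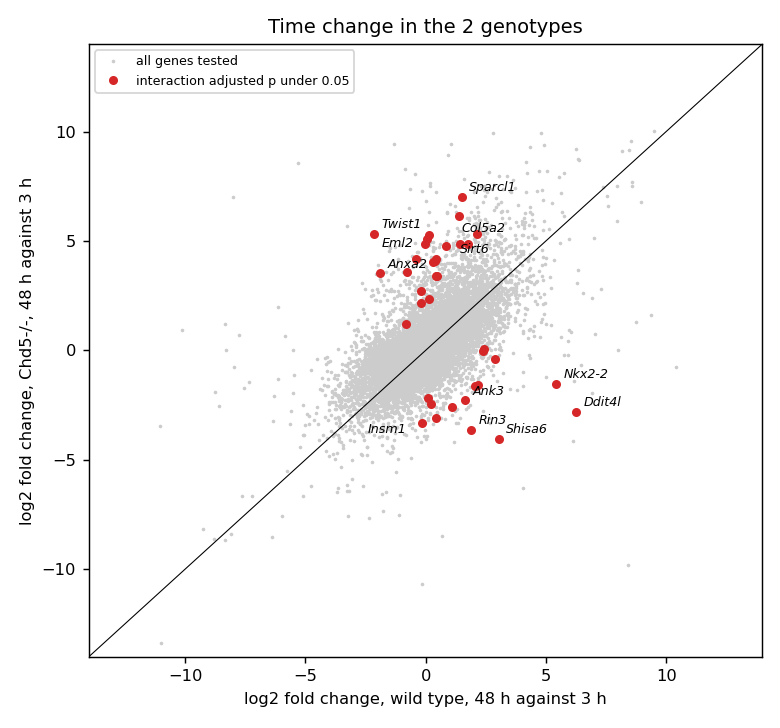
Log2 fold change from 3 h to 48 h in wild type (horizontal) and Chd5-/- (vertical) for the 16043 genes tested (grey), with the 37 genes of interaction adjusted p under 0.05 in red. The line marks equal change; 22 red genes lie above it and 15 below.

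The other genes of largest difference were Anxa2, Sirt6, Eml2, Ank3, Ddit4l, Rin3 and Shisa6. Anxa2, a calcium-dependent membrane-binding protein, rose in Chd5-/- from 2.74, 2.84 and 2.22 CPM to 31.3, 31.9 and 27.2 CPM and fell in wild type from 87.1 to 174 CPM to 17.3 to 40.7 CPM (5.41 ± 0.51, adjusted p = 0.00248). Sirt6, a chromatin deacylase, rose in Chd5-/- from 0.168, 0.253 and 0.228 CPM to 7.86, 7.01 and 8.14 CPM, beside 14 to 39.5 CPM and 20.5 to 25.6 CPM in wild type (5.04 ± 0.61, adjusted p = 0.00572). At 48 h, Anxa2 overlapped between the genotypes, while Sirt6 was still lower in each Chd5-/- library. Eml2, a microtubule-binding protein gene, rose in Chd5-/- from 0.335, 0.189 and 0.512 CPM to 11.7, 8.88 and 10.6 CPM (difference 4.91 ± 0.55, adjusted p = 0.00476).

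Ank3, the ankyrin of the axon initial segment, fell in Chd5-/- from 94.1, 93.2 and 103 CPM to 14.7, 31.8 and 13.1 CPM, and lay between 0.171 and 1.16 CPM in wild type (-3.94 ± 0.64, adjusted p = 0.0364). Ddit4l, an inhibitor of mTOR signalling, fell from 305, 309 and 305 CPM to 33.4, 60.6 and 37 CPM, beside 1 read in wild type at 3 h and 1.01 to 3.18 CPM at 48 h (adjusted p = 0.00198). Rin3 and Shisa6, a regulator of endocytosis and a glutamate receptor auxiliary subunit, fell by 3.63 and 4.03 in Chd5-/- and stayed at or under 1.19 and 0.305 CPM in wild type (adjusted p = 0.015 and 0.0365). When 1 of the 12 libraries was omitted, between 15 and 310 genes passed the interaction, and 310 did so without wild-type replicate 1 at 3 h. Of the 12 genes named here, 8 passed in each of these fits. Ank3, Shisa6, Rin3 and Insm1 were lost without any one of the 3 Chd5-/- libraries at 3 h, replicates 1 and 3 of either genotype at 48 h, or wild-type replicate 3 at 3 h. Ank3, Shisa6 and Insm1 were also lost without wild-type replicate 2 at 3 h, and Insm1 without 48 h replicate 2. For Nkx2-2, Ddit4l and Shisa6 the size of the fitted difference depends on the prior count, since wild type at 3 h had 2 reads or fewer.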

How the data were processed

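RNA of 12 libraries was measured by RNA-seq, after Trizol extraction; per the labels' protocols the kit was TruSeq Stranded mRNA. Transcripts were quantified with Salmon, per the submitters' processing notes; the sources used here do not give its version, settings, strand setting or index. Per the file headers, the deposited tables hold an estimated count of reads, TPM and an effective length for each of 140658 transcripts. TPM deposited by the authors was used for Chd5 alone, and the deposited effective length served only as an offset in 1 alternative. Transcript names were matched to GENCODE M21 (GRCm38), which may differ from the annotation the authors used; 140137 matched, and the other 521, with 0.135% to 0.181% of a library's reads, were dropped. Estimated counts were summed by gene (54356 genes), then rounded to integers. Samples were grouped by the genotype and time in their labels.

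Counts were tested with edgeR 4.0.16 under R 4.3.3: filterByExpr (minimum count 10, total 15), TMM scaling, 1 mean per group over all 12 libraries, two-sided quasi-likelihood F tests and Benjamini-Hochberg adjusted p under 0.05 over all genes tested. Values after ± are standard errors (SE) of the log2 fold change, with n = 3 libraries per group; without 48 h replicate 2, n = 2 at 48 h. Alternatives were RLE size factors, library size alone, no filter beyond 1 read, DESeq2 1.42.0, a length offset, limma-voom (limma 3.58.1), a filter of 1 CPM in 3 libraries, the Chd5-/- libraries alone, replicate blocks, and libraries left out. The procedure was tested on simulated data. A group with 0 reads was given a floor of 3 reads over the group.

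The members, the 36 gene lists and the rules were chosen with earlier results of these data known. Genes were named by rule: the 15 of largest fold change in each direction among called genes with at least 5 CPM in the higher group and no overlap between the times, 10 in each direction called only without 48 h replicate 2, 5 in each direction of the interaction, up to 6 of each list by p, the first 4 of each list, and Chd5; placeholder, pseudogene and sex-linked symbols were left out of the fold change rules. Of these, the genes in the text were picked after their values were seen, as were Aqp4, Clu, Cst3, Aldoc, Glul, Hes1, Fabp7, Vim and other list members outside the rule. Promoter sequences are from RefSeq (GRCm38.p6), the 250 bases before the gene start.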

Additional observations from a re-analysis of the deposited data

Results flagged for a closer look

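The time change differed between the genotypes for 37 genes (edgeR interaction, adjusted p under 0.05 over 16043 genes, 0.231%). Among the genes of the report, the difference of the Chd5-/- log2 change from the wild-type change was positive for Sparcl1 (5.51), Col5a2 (5.11), Twist1 (7.45), Anxa2 (5.41), Sirt6 (5.04) and Eml2 (4.91). It was negative for Insm1 (-3.13), Ank3 (-3.94), Rin3 (-5.52), Nkx2-2 (-6.95), Shisa6 (-7.08) and Ddit4l (-9.07). When 1 of the 12 libraries was omitted, 8 of these 12 passed in each fit, while Insm1, Ank3, Rin3 and Shisa6 were lost in 10, 9, 8 and 9 fits. The sizes for Nkx2-2, Shisa6 and Ddit4l depend on the prior count, since wild type had 0 to 2 reads at 3 h. In Twist1 and Rin3 the lower groups held few reads. Library differences behind these results were not tested beyond the fits given with the processing.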

How the results depend on the processing

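The count of 3544 genes was 7836 with the 6 Chd5-/- libraries alone, 12686 with those libraries less 48 h replicate 2, and 13029 without the 3 libraries that stand apart. With 1 Chd5-/- library left out it ran from 1708 to 4208. Within Chd5-/-, deviations from the group mean were correlated across genes between 3 h and 48 h libraries. The correlation lay between -0.0003 and 0.0136 for same-numbered libraries and between -0.0153 and 0.0082 for the others. At 48 h these deviations largely follow replicate 2, so the check cannot decide whether replicate numbers are paired. A replicate block gave 6214 within the Chd5-/- libraries and 1914 nested in genotype over all 12. The remaining alternatives gave 2675 (length offset) to 4668 (DESeq2). The interaction count of 37 was 385 with DESeq2, 3 with the nested replicate block, 6669 without the 3 libraries, and 15 to 310 with 1 library left out. The cause of these differences was not tested.

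Of 154 named genes, those whose direction turned passed with all 12 libraries in no case. Chd5 turned to 1.08 with the length offset, and Olig2 to -0.0032 without the 3 libraries. Myc turned to -0.14 with limma-voom, -0.12 and -0.15 with the replicate block within Chd5-/- and nested, -0.65 without 48 h replicate 2 (0.30 at most without another), -0.64 with the Chd5-/- libraries less that library, and -0.67 without the 3 libraries. In these last 3 settings Vegfa was -0.75, -0.74 and -0.77 (up to 2.28 without another library) and Ddit3 -0.31, -0.30 and -0.34 (up to 0.28). Without 48 h replicate 1 or 3, Asns was 0.34 and 0.33 and Spry4 0.20 and 0.21, against -2.41 and -2.90 without 48 h replicate 2. The nested replicate block ended 22 calls of named genes and 10 of the 12 named interaction calls, and the block within Chd5-/- ended 3. Limma-voom ended 9 calls (Gfap, Clu, Cst3, Slc1a3, Hey2, Dcx, Usp18, Mroh7 and Dhrs3), and the length offset 8. Library size alone ended 5 (Fabp7, Nr2e1, Mdm2, Ccng1 and Foxj1). With 14 to 19 M reads a library, levels under 1 CPM rest on few reads.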
